A study of Mus musculus with 10 samples.

Results

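Described here are 10 translation factor genes, of the 55487 genes in the expression tables, in unperturbed mouse embryonic stem cells. They were chosen by name: the elongation factor genes Eef1a1, Eef1a2, Eef1b2, Eef1d, Eef1g and Eef2, and the initiation factor genes Eif4a1, Eif4a2, Eif4e and Eif4g2. All 10 were found by their Ensembl gene ID under GENCODE vM21 names. The rule uses names, not measured values, but the genes were chosen with earlier results of these data known. The study mapped R-loops, RNA paired with 1 strand of DNA, by MapR and BisMapR, and it also sequenced RNA. Its 7 R-loop samples are not used here. The values come from 1 group of 3 RNA-seq replicates, and no contrast between groups was made. That group was E14, an established mouse embryonic stem cell line, grown with serum, LIF and inhibitors of GSK and MEK1/2, and its total RNA went into strand-marking libraries after ribosomal RNA had been removed. The labels name no genotype change and no treatment of these cells, and do not say whether the replicates came from separate cultures. The spread between them may therefore be technical.

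Translation initiation brings the small ribosomal subunit to the capped end of an mRNA. There eIF4E, encoded by Eif4e, binds the cap, and the RNA helicase eIF4A, encoded by Eif4a1 and Eif4a2, unwinds the leader. Both work on a large scaffold protein, eIF4G. Eif4g2 encodes a relative of that scaffold that lacks the cap-binding partner's site and serves other modes of initiation. In elongation, eEF1A, encoded by Eef1a1 or Eef1a2, carries aminoacyl-tRNA to the ribosome. The eEF1B complex, built from the products of Eef1b2, Eef1d and Eef1g, reloads it with GTP. The product of Eef2, a GTPase that carries the modified histidine diphthamide, then moves the ribosome along. Eef1a2 is best known from neurons, heart and skeletal muscle, while Eef1a1 serves most other cells.

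Estimated counts summed to 11420425 in replicate 1, 6467405 in replicate 2 and 5787357 in replicate 3. In CPM, which divides a count by that sum without regard to length, the floor of 3 counts was 0.263, 0.464 and 0.518. The 10 genes took 1.59, 1.65 and 1.63% of these counts. All 8 markers of pluripotent cells had a mean TPM of at least 1, from Klf4 at 16.6 to Tdgf1 at 331. TPM is an abundance per transcript length, set to an equal total in each library. Of the feeder fibroblast markers 1 of 8 reached that level (Thy1, 2.50 TPM) and 5 had no counts. The same level was reached by 2 of 6 neuron markers, led by Tubb3 at 11.6 TPM, by 1 of 7 muscle markers (Des, 1.40 TPM) and by none of 5 primitive endoderm markers. Genes with an effective length under 100 nt held 60.3, 65.8 and 63.9% of TPM, so every TPM value below is set against a total that these genes dominate. Of the 10 genes, 9 had a mean TPM of at least 1, against 44.1% of the 21974 protein-coding genes and 19.8% of all 55487 genes.

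Eef1a1 (ENSMUSG00000037742, GRCm38 chr9:78478449-78489151, minus strand) was the most abundant of the 10 genes in every replicate. Its level was 4657, 3881 and 3683 TPM in replicates 1, 2 and 3, or 4074 ± 514 TPM (SD, n = 3). It ranked 1 among nuclear protein-coding genes in each replicate, both by TPM and by count. Only the mitochondrial genes mt-Co1 and mt-Atp8 stood above it among all protein-coding genes by mean TPM. With 113259, 66807 and 61745 counts, it took 1.03% ± 0.0376 of all counts and 63.5% ± 1.57 of the counts in the 10 genes.

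Eef1a2 (ENSMUSG00000016349, chr2:181147653-181157014, minus strand), which encodes the other form of eEF1A, was at the limit of detection. It had 3 counts in replicate 1 and 0 in replicates 2 and 3, where 3 counts would have corresponded to 0.0816 and 0.0810 TPM. Over the 3 libraries Eef1a1 had 241811 counts and Eef1a2 had 3, a ratio per coding base of 80778, with an exact 95% interval of 27640 to 391704 that covers counting error only. Whether these 3 counts reflect expression of Eef1a2 at all was not tested. If they do, a low level in all cells and expression in a few cells cannot be told apart in bulk RNA. On the log2(TPM + 1) scale, which understates the difference for a gene this low, Eef1a1 exceeded Eef1a2 by 11.96 ± 0.13. The coding sequences share 1110 of 1389 aligned bases (79.9%). Their first 60 coding bases are shown because the capitals, the 11 bases that differ, are what lets a read be assigned to one gene or the other.
Eef1a1: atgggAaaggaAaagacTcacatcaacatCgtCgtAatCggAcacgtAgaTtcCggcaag
Eef1a2: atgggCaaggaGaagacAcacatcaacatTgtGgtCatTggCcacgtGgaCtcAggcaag

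**Figure D1:**
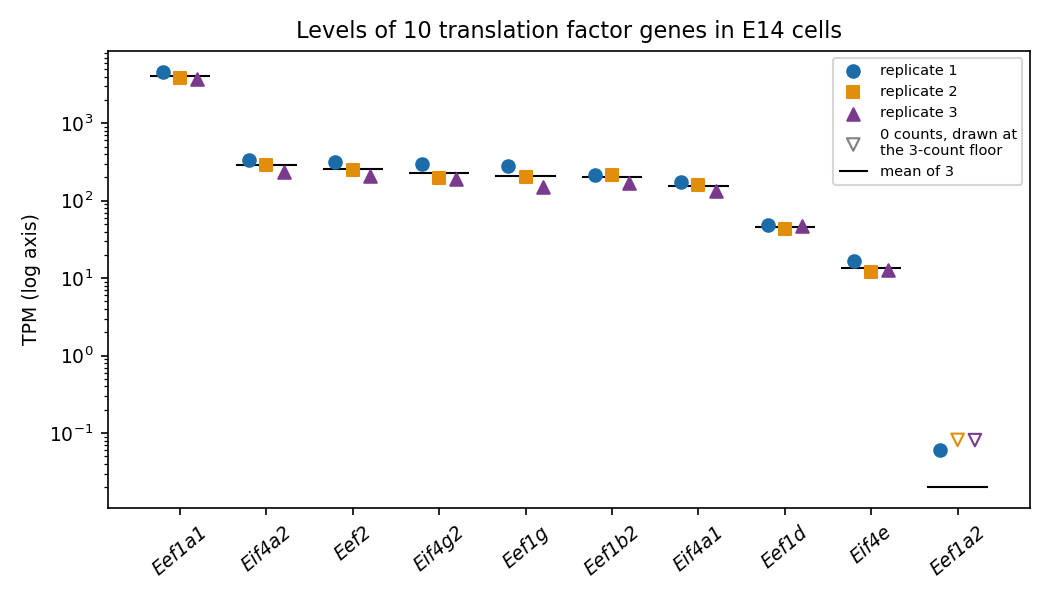
Deposited TPM (log axis) of the 10 genes in replicates 1, 2 and 3, with the mean of 3 as a bar and open triangles at the 3-count floor where a library had 0 counts. Eef1a1 lies at 3683 to 4657 TPM, 6 genes crowd between 134 and 335 TPM, and Eef1a2 has counts in replicate 1 alone.

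The 3 subunits of eEF1B fell on unequal levels, with Eef1d below the other pair in every replicate. Eef1g (ENSMUSG00000071644, chr19:8967041-8978479, plus strand), the scaffold subunit, had 277, 204 and 151 TPM, or 211 ± 63.1 (SD, n = 3). Eef1b2 (ENSMUSG00000025967, chr1:63176825-63180486, plus strand), an exchange factor, had 217, 216 and 171 TPM, or 201 ± 26.0. In TPM the ranges of these 2 genes overlapped, and Eef1g was the higher of them in 1 of 3 replicates. As counts, which carry the length of the transcripts, Eef1g was 2.33 ± 0.468 times Eef1b2. Eef1d (ENSMUSG00000055762, chr15:75894205-75909556, minus strand), the other exchange subunit, had 48.1, 42.9 and 47.4 TPM, or 46.1 ± 2.82. Eef1b2 was 4.38 ± 0.717 and Eef1g 4.57 ± 1.29 times as abundant as Eef1d in TPM, with no overlap between the ranges. Their count ratios to Eef1d were 2.79 ± 0.397 and 6.55 ± 1.73. In TPM, Eef1a1 was 20.3 ± 2.04 times as abundant as Eef1b2, 20.1 ± 3.88 times as abundant as Eef1g and 88.3 ± 9.73 times as abundant as Eef1d. As counts, these ratios were 35.6 ± 2.79, 15.6 ± 2.97 and 98.6 ± 9.61. Ndufs1 lies partly across Eef1b2 on the opposite strand, as Rfc4 does across Eif4a2, so their reads could be mixed if the counting ignored strand. Naprt overlaps the Eef1d locus, where reads could also be mixed.

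Eef2 (ENSMUSG00000034994, chr10:81176631-81182498, plus strand) had 312, 252 and 210 TPM, or 258 ± 51.7 (SD, n = 3). Its transcript is long, and with 24799, 13904 and 11698 counts it ranked 10, 8 and 11 by count among nuclear protein-coding genes. The TPM of Eef1a1 was 16.0 ± 1.42 times that of Eef2, while the ratio of their counts was 4.88 ± 0.362. Eef2k, the kinase that inhibits eEF2, was at 2.66 ± 0.754 TPM. The 6 genes of diphthamide synthesis that were looked up were all detected, from Dph2 at 1.31 to Dph3 at 9.74 TPM, and all lay below Eef2.

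Both genes for the helicase eIF4A were expressed, and which of them was higher depended on how 1 processed pseudogene was treated. Eif4a2 (ENSMUSG00000022884, chr16:23107444-23114136, plus strand) had 335, 293 and 234 TPM, or 287 ± 50.4 (SD, n = 3). Eif4a1 (ENSMUSG00000059796, chr11:69666936-69672423, minus strand) had 173, 160 and 134 TPM, or 156 ± 19.5. In the deposited values Eif4a2 was thus the higher in each replicate, by 1.94, 1.83 and 1.75 times, and the ranges did not overlap. Counts showed a smaller ratio, 1.17 ± 0.114, so the size of the difference also rested on length. The deposited length was 1141, 1200 and 1078 nt for Eif4a2 and 1691, 1721 and 1712 nt for Eif4a1. The coding sequences share 954 of 1224 aligned bases (77.9%). A stretch of 60 coding bases, positions 91 to 150 of Eif4a1 counted from the A of the start codon, is shown with the 14 differing bases in capitals. It shows how far apart the pair is, in contrast to the pseudogene that follows.
Eif4a1: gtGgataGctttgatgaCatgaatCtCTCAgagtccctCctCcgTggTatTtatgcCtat
Eif4a2: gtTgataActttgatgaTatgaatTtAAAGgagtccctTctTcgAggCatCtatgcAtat

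The processed pseudogene Eif4a-ps4 (ENSMUSG00000101188, chr1:60703932-60705149) was listed with more counts than Eif4a1 itself. It had 9374, 6321 and 6747 counts, against 7269, 4773 and 4024 for Eif4a1, a ratio of 1.43 ± 0.214 (SD, n = 3). It matches the coding sequence of Eif4a1 at 1217 of 1218 bases and differs by the substitution G534A, counted from the A of the start codon. The bases around that position, 505 to 564 of the coding sequence, carry this single difference in capitals.
Eif4a1: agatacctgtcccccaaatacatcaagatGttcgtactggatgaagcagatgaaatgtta
Eif4a-ps4: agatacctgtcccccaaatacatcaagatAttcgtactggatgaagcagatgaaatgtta
Reads that do not cross this base and lie within the coding sequence fit both genes, and an estimator such as RSEM divides them between the candidates. Which of the 2 genes those reads came from cannot be told from gene-level tables. With the counts of its near-identical copies added, Eif4a1 was the higher of the helicase genes by 0.40 ± 0.20 on the log2 scale, against -0.87 ± 0.08 without them.

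Such copies were looked for with every member against all annotated transcripts, at an identity of at least 90% over at least 200 bases. For Eif4a1, 4 copies held 56.3, 57.0 and 62.7% of the counts of gene and copies together (58.7% ± 3.48, SD, n = 3), nearly all of it in Eif4a-ps4. For Eef1a1, 18 copies, of which 15 had counts, held 8.19, 8.65 and 8.64% (8.49% ± 0.261). The pseudogene Gm13456 (chr2:40555752-40557116) led them with 8227, 5129 and 4587 counts, and matches Eef1a1 at 1342 of 1387 aligned bases. For Eef1g, 5 copies held 4.86, 10.3 and 9.02% (8.06% ± 2.84), led by Gm4366 (chr7:116824510-116825851) with 367, 481 and 302 counts and 1306 of 1311 bases shared. For Eef2, Eif4a2, Eif4e and Eef1b2 the mean share was 0.146, 0.243, 0.0890 and 0.0498%. The 2 copies of Eef1d had no counts, and Eef1a2 and Eif4g2 had no copy by this rule. For each gene with copies, the split of reads between gene and copies rests on the authors' estimator.

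**Figure D2:**
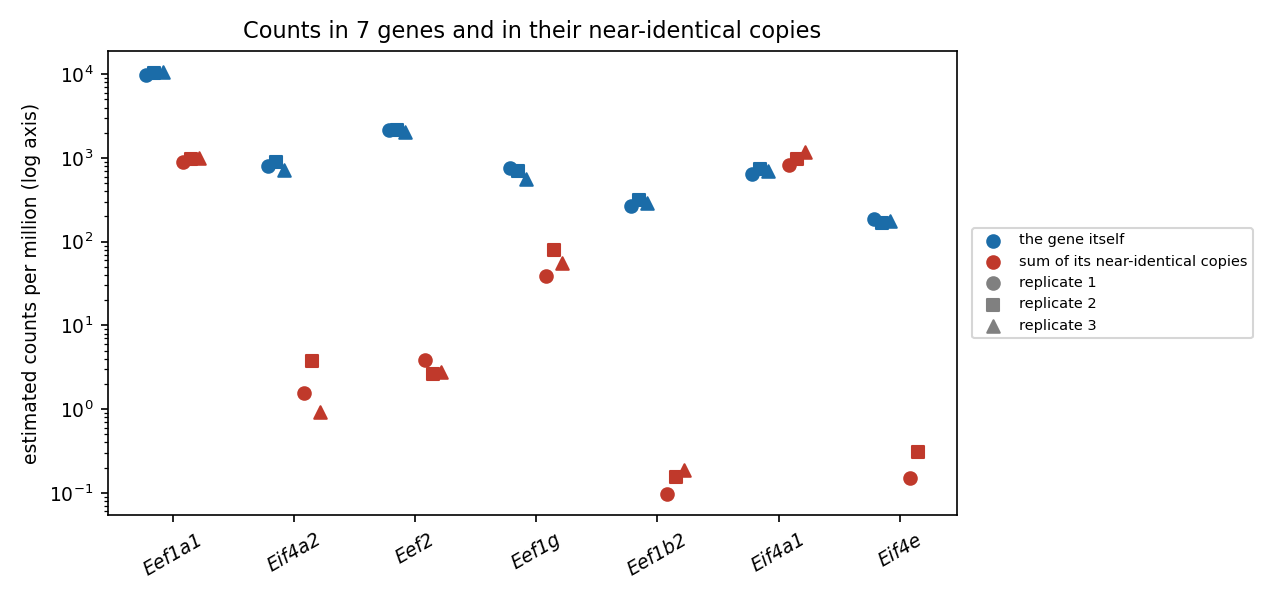
CPM of estimated counts (log axis) in the 7 genes that have a near-identical copy with counts (blue) and in the sum of those copies (red), by replicate; sums of 0 are not drawn. The red points lie above the blue ones for Eif4a1 and below them for the other 6 genes.

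Eif4g2 (ENSMUSG00000005610, chr7:111067750-111083030, minus strand) had 297, 195 and 191 TPM, or 228 ± 59.9 (SD, n = 3). In TPM replicate 1 stood above the other pair, but in TMM-scaled CPM it was the lowest, at -0.09 from the log2 mean against -0.04 and 0.13. Eif4g2 was 4.46 ± 0.255 times as abundant as Eif4g1, the canonical scaffold gene, which had 50.6 ± 10.2 TPM. Eif4e (ENSMUSG00000028156, chr3:138526179-138559696, plus strand), the cap-binding factor, was the lowest of the 9 expressed genes with 16.6, 12.0 and 12.6 TPM, or 13.7 ± 2.46. Its relative Eif4e2, which also binds the cap, was at 18.0 ± 1.64 TPM, and the ratio of Eif4e to Eif4e2 was 0.761 ± 0.0660 in TPM. The ratio of their counts, which carries the length of the transcripts, was 2.36 ± 0.307 and so had the opposite direction. Eif4ebp1, which encodes an inhibitor that keeps eIF4E from its scaffold, was 9.93 ± 0.585 times as abundant as Eif4e in TPM. Eif4a1 stood 10.4 ± 1.93 times above Eif4a3, a related helicase of the exon junction complex. As counts, the ratios were 2.54 ± 0.169 for Eif4g2 to Eif4g1, 1.96 ± 0.239 for Eif4ebp1 to Eif4e and 17.3 ± 3.19 for Eif4a1 to Eif4a3, in the same direction as in TPM.

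By mean TPM the order was Eef1a1, Eif4a2, Eef2, Eif4g2, Eef1g, Eef1b2, Eif4a1, Eef1d, Eif4e and Eef1a2. Ranges over the replicates did not overlap between Eef1a1 and Eif4a2, Eif4a1 and Eef1d, Eef1d and Eif4e, or Eif4e and Eef1a2. From Eif4a2 down to Eif4a1 each gene's range overlapped that of the next. Over larger steps it did not always do so, and the range of Eif4a1 lay below those of Eif4a2, Eef2 and Eif4g2. Within replicates, 42 of the 45 pairs kept the same order in all 3. Eif4g2 exceeded Eef1g in 2 of 3 replicates and Eef1g exceeded Eef1b2 in 1 of 3.

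The length behind the TPM values moved this order. RSEM weights transcript lengths by their estimated shares, and for 7 of the 10 genes the deposited length was under that of the shortest complete coding transcript in every replicate, against 41.3% of 9659 expressed protein-coding genes. It was lowest for Eif4g2, at 45.5, 56.3 and 51.9% of 3548 nt, and for Eef1a1, at 57.6, 58.7 and 56.6% of 1794 nt. For Eef1g it was 68.8, 70.9 and 68.2% of 1864 nt. The annotation lists shorter transcripts of these genes, some with a retained intron, 4 of them at Eef1a1, 3 at Eef1g and 6 at Eif4g2. Eef2, Eif4a1, Eef1b2 and Eif4a2 were only a little under their shortest complete coding transcript, at 87.9 to 99.5% of it. Counts per kilobase of coding sequence do not use the deposited length. On this scale, in CPM per kilobase, Eef1a1 had 7435 ± 272, Eef2 came next with 821 ± 31.6, and Eif4a2 (663 ± 74.1) and Eif4a1 (566 ± 41.9) followed. Eef1g had 514 ± 74.5, Eef1b2 431 ± 40.8 and Eif4g2 389 ± 5.38. Eif4e (272 ± 17.7) was above Eef1d (125 ± 17.2) on this scale and below it in TPM. Its main transcript has 651 coding bases of 4991, and reads from the noncoding remainder count toward the value. With copies added, Eif4a1 was at 1378 ± 168, above Eef2 at 823 ± 31.7.

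The next comparison asked whether any of these genes varied more between the replicates than genes of like abundance. Deviance was taken under the trended dispersion in edgeR's goodness-of-fit test, with Benjamini-Hochberg adjustment over 12577 genes. Eef1a2 did not pass the filter on low counts. Of the 9 genes tested, 0 were called, against 1.84% of all genes (232 of 12577), and 0 of 9 had an unadjusted p under 0.05, against 6.96%. The total of 232 fell to 89, 63 and 93 without replicate 1, 2 or 3, and the count for the 9 genes was 0 in each case. The lowest unadjusted p among them was that of Eef1d, 0.194, and the adjusted p was 1 for all 9. A p above the threshold does not show that a gene did not vary.

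The deviations were read in TMM-scaled CPM, which corrects for library composition. The largest deviation of any replicate from a gene's own log2 mean had a median of 0.14 over the 9 genes. Over all genes tested, a set not matched to the 9 for abundance, it was 0.20. Eef2 stayed closest to its mean, at -0.03, -0.02 and 0.05 in replicates 1, 2 and 3. Eef1d moved most, at -0.22, -0.11 and 0.33, while tested genes of like length had a median of -0.10, -0.01 and 0.12. Eef1g was at 0.10, 0.03 and -0.13, opposite in sign to its genes of like length in replicates 1 and 3 (-0.06 and 0.08). Replicate 3 lay above the mean for 7 of the 9 genes and replicate 1 below it for 7 of 9. The share of all tested genes with these signs was not taken, so the counts are not a trait of these 9. In TPM replicate 3 was the lowest for 7 of the 9, the exceptions being Eef1d and Eif4e. The median TPM of the 9683 expressed protein-coding genes was also lowest there, at 7.11, 5.58 and 4.39 in replicates 1, 2 and 3. The share of TPM in short genes was lowest in replicate 1, and its part in the difference between the 2 scales was not tested.

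**Figure D3:**
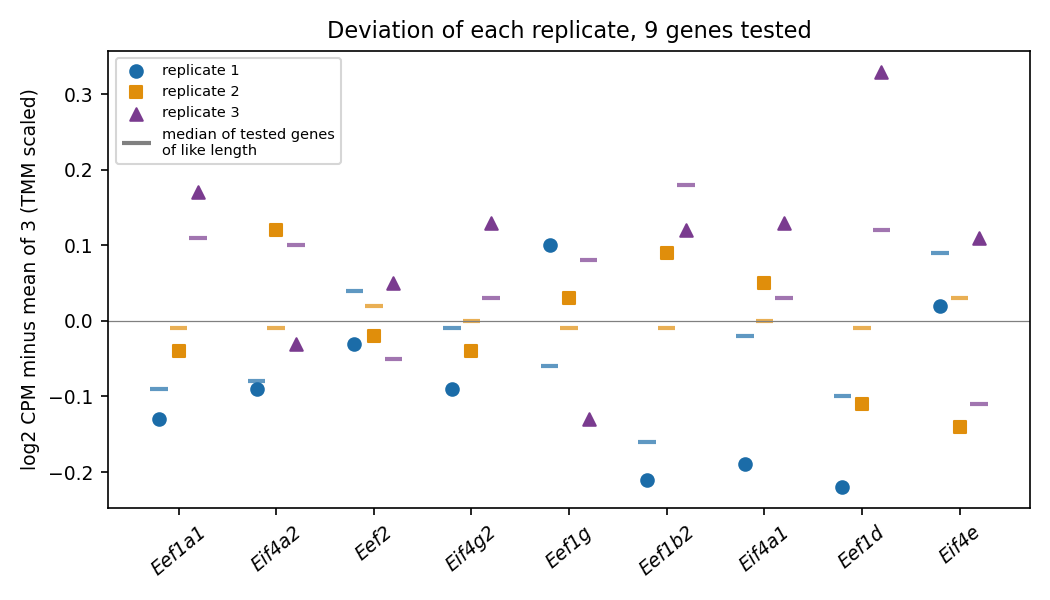
Distance of each replicate from a gene's mean, in log2 TMM-scaled CPM, for the 9 genes tested (points) beside the median deviation of tested genes of like length (short bars of the same colour). The points span -0.22 to 0.33, both in Eef1d.

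Small nucleolar RNA (snoRNA) genes lie on the same strand inside 5 of the 10 genes, against 1.98% of 9683 expressed protein-coding genes. That set is not matched to the 10 for abundance or function, and the share among other genes of protein synthesis was not taken. snoRNAs guide chemical modification of ribosomal and other RNAs, and most in mammals are cut from introns of host genes. The annotation places 13 snoRNA genes in Eif4a2 (5), Eif4a1 (3), Eef1b2 (3), Eef2 (1) and Eif4g2 (1), all in introns of the host's main transcript, and 9 of them had counts. The 4 listed at 0 have annotated lengths of 35 to 78 nt and an effective length of 0, at which RSEM assigns no reads, so their 0 does not speak to their level. They are Snord37 in Eef2, Snord2 in Eif4a2 and 2 entries named Gm26457 in Eef1b2.

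Eif4a2 was the richest host by count. Snora81 had 2215, 1873 and 1557 counts, Gm26447 had 2006, 1281 and 1643, and Gm24616 had 2224, 1290 and 1321. Gm24201 was near the low end with 33.8, 13.6 and 9.56 counts. Their sum came to 71.1, 76.1 and 108% of the count of Eif4a2 itself. Snora81, Gm26447 and Gm24201 also lie whole in an exon of other Eif4a2 transcripts, so these shares rest on how reads that fit both were divided. In Eif4a1 the sum over 3 snoRNA genes was 26.6, 40.3 and 67.8% of the host count, higher in replicate 3 than in replicate 1. Snora41 held 7.27, 5.28 and 9.46% of the count of its host Eef1b2, and Gm23262 held 7.25, 6.14 and 6.07% of that of Eif4g2. Of the 168 bases of Gm23262, 150 also match an Eif4g2 transcript. These shares compare counts, not molecules, since a snoRNA is far shorter than its host's mRNA.

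Of these 9 snoRNA genes, 2 varied between replicates at an adjusted p under 0.05 in edgeR's goodness-of-fit test, against 32.7% of the 110 snoRNA genes tested, and both lie in Eif4a1. Gm24029 (chr11:69667834-69667976, minus strand) had 82.2, 181 and 296 TMM-scaled CPM (adjusted p = 0.000271). Gm22988 (chr11:69669635-69669778, minus strand) had 48.6, 67.5 and 160 TMM-scaled CPM (adjusted p = 4.65e-05). Both were highest in replicate 3 and lowest in replicate 1, and so were genes of like length, whose median deviations were -0.39, -0.25 and 0.70 in log2. With each replicate corrected for gene length, neither was called, at an adjusted p of 0.0913 for Gm24029 and 0.820 for Gm22988. Without replicate 1 the values were 0.994 and 0.0700, and without replicate 3 that of Gm22988 was 0.815. The third snoRNA gene of Eif4a1, Gm25835, had 30.9, 41.7 and 58.6 TMM-scaled CPM (adjusted p = 0.389). The sequences of the 2 called genes are shown because both end in the trinucleotide that marks H/ACA snoRNAs, ACA followed by 3 further bases, here in capitals.
Gm24029: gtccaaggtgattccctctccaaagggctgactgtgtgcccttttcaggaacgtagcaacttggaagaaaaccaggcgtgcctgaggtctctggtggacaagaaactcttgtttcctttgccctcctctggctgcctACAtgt
Gm22988: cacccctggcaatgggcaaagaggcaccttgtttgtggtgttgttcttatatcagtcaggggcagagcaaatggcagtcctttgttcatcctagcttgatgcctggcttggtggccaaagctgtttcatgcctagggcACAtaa
Other Eif4a1 transcripts hold these sequences in an exon, 2 transcripts for Gm24029 and 1 for Gm22988, so that reads there fit both the snoRNA and its host. Gm22988 also has near copies elsewhere, the closest of which, Gm25291, shares 97.9% of 142 aligned bases and had 63.5, 22.1 and 73.9 counts.

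**Figure D4:**
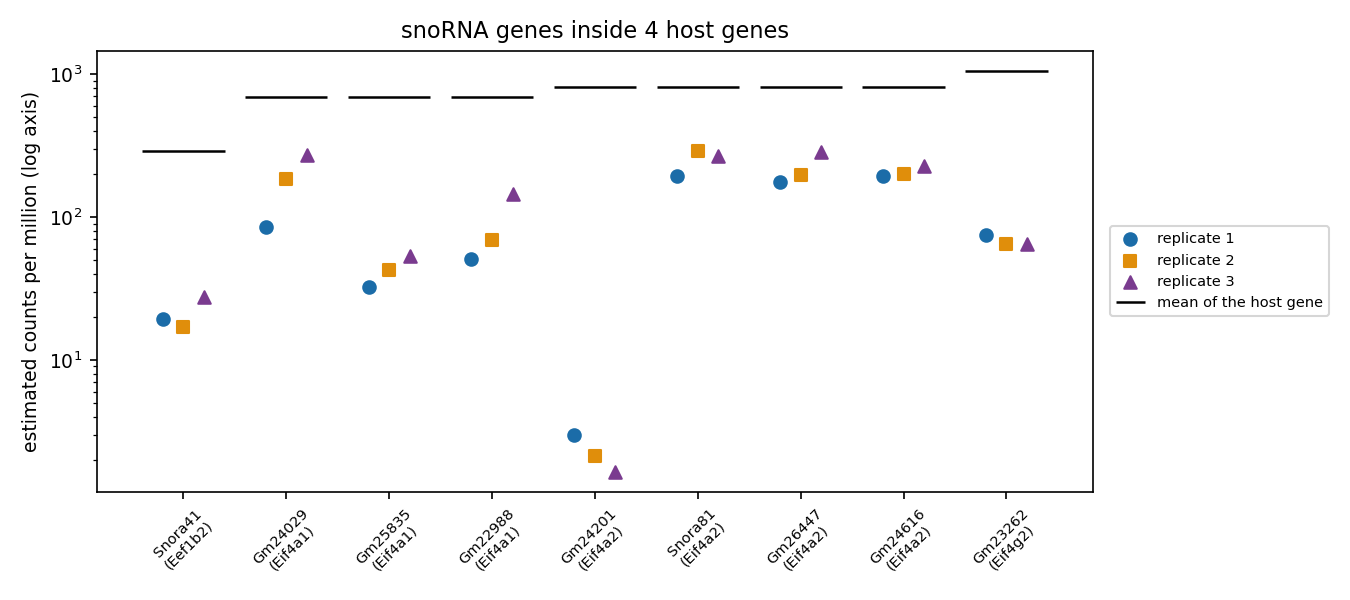
CPM of estimated counts (log axis) of the 9 snoRNA genes with counts, by replicate, with the mean of the host gene as a bar. Every snoRNA point lies below its host's bar, and Gm24029 and Gm22988 in Eif4a1 are at 85.9 and 50.8 in replicate 1 and at 271 and 146 in replicate 3.

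The other genes of the translation factor network, 81 genes in 10 lists, were read from the same tables. Of these, 79 had a mean TPM of at least 1. The median over the 81 was 18.2, 14.2 and 11.4 TPM in replicates 1, 2 and 3 (14.6 ± 3.38, SD, n = 3). That of the 10 described genes was 247, 200 and 161 TPM (203 ± 42.8). Genes and lists were chosen with earlier results of these data known, so the difference speaks only for the genes chosen. Above 100 TPM stood Pabpc1, the poly(A) binding protein gene (255 ± 133), Eif5a (208 ± 49.6), Eif2s2, a subunit of eIF2 (154 ± 15.5), Eif4ebp1 (136 ± 17.7) and the eIF3 subunit genes Eif3k (107 ± 10.1) and Eif3e (105 ± 19.6). The mean of Pabpc1 was just under that of Eef2, and Pabpc1 exceeded Eef2 in replicates 1 (365 TPM) and 2 (291 TPM) but not in replicate 3 (107 TPM). The means of the other listed genes were below that of Eef2. The 14 genes of eIF3, the largest initiation factor, had a median of 53.9 TPM. The mitochondrial factors were lower, with a median of 9.54 TPM and Tufm highest at 16.0.

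Of the 79 listed genes tested, 1 varied between replicates in edgeR's goodness-of-fit test, against 1.84% of all genes, and 6 had an unadjusted p under 0.05, against 6.96%. Both counts are near the background. The called gene was Eif4ebp2, a second eIF4E inhibitor gene, with 251, 236 and 102 TMM-scaled CPM, lowest in replicate 3 (adjusted p = 0.0276). Its call was lost without replicate 1, 2 or 3, at an adjusted p of 0.119, 0.183 and 0.999. The other 5 genes with an unadjusted p under 0.05 did not pass the threshold. Of these, 4 had their lowest TMM-scaled CPM in replicate 3: Eif3f with 142, 150 and 67.6 (adjusted p = 0.0666), Eif4g3 with 12.7, 12.4 and 4.71 (adjusted p = 0.143), Pabpc1 with 1244, 1239 and 585 (adjusted p = 0.204) and Larp1 with 347, 321 and 175 (adjusted p = 0.333). Eif2b4 went the other way, with 18.4, 17.8 and 30.7 (adjusted p = 0.681). Over the same replicates Eif4e was at 0.02, -0.14 and 0.11 around its log2 mean. It did not share the low value of Eif4ebp2 in replicate 3. Eif4ebp1, the more abundant inhibitor gene, was highest there, with 312, 314 and 424 TMM-scaled CPM.

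**Figure D5:**
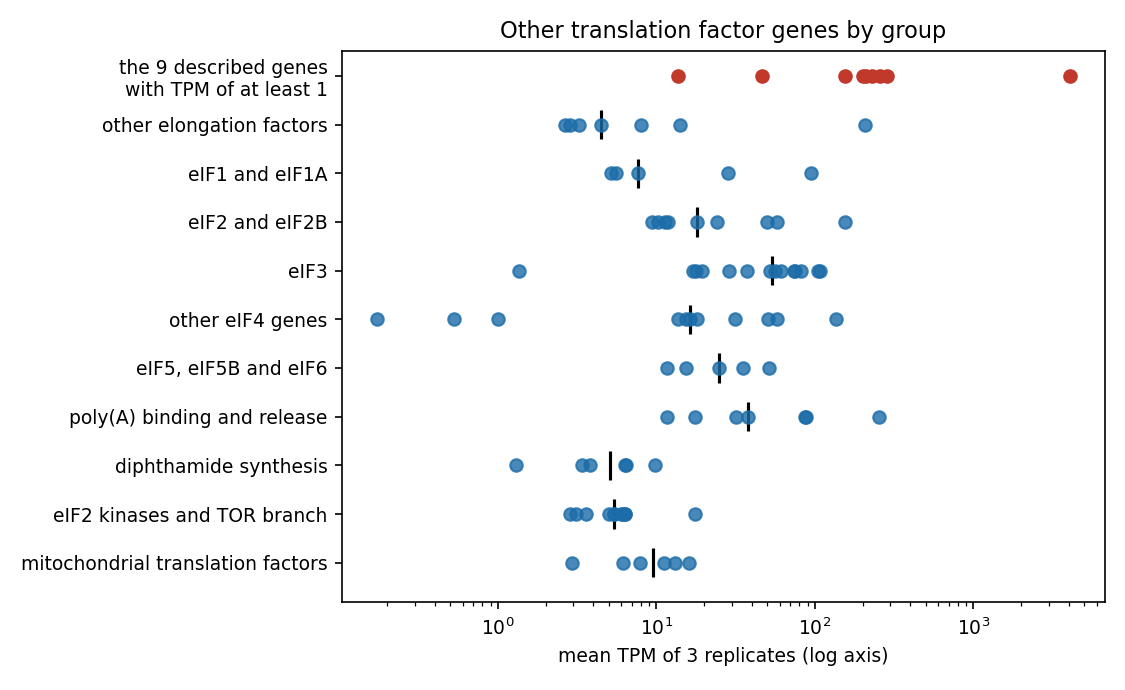
Mean TPM over 3 replicates (log axis) of the 9 described genes with TPM of at least 1 (red) and of the 81 other translation factor genes by list (blue), with each list's median as a bar. The red points other than Eef1d and Eif4e lie at 156 TPM or above.

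Other gene sets of protein synthesis gave medians to set beside that of the 10 genes. The median of the 86 ribosomal protein genes was 237 ± 19.5 TPM (SD, n = 3) and that of the 8 genes of the TCP1 ring, a chaperonin that folds new proteins, was 90.4 ± 5.58. The median of all 9683 expressed protein-coding genes was 5.69 ± 1.36 TPM. On the log2(TPM + 1) scale the median of the 10 genes exceeded that of expressed protein-coding genes by 4.92 ± 0.01.

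For each gene the protein-coding gene with the most alike level was found by the root mean square difference of log2(TPM + 1) over the 3 replicates. Eif4a1 was matched by Ldha, a lactate dehydrogenase gene, at 0.020, Eif4e by Trim6 at 0.029 and Eef2 by Rpl15, a ribosomal protein gene, at 0.033. Eef1g was matched by Actg1, a cytoplasmic actin gene, at 0.047 and Eef1d by Emg1 at 0.053. Eef1b2 was matched by the ribosomal protein gene Rps7 at 0.113, Eif4a2 by Upp1 at 0.137 and Eif4g2 by Tmsb10 at 0.141. Eef1a1 had no close match, and the nearest gene, mt-Atp8, differed by 0.837. For Eef1a2, 37 genes tied at 0.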

How the data were processed

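RNA was measured in 3 E14 replicates. Each table's columns are those of RSEM's gene-level output. Each expected count is, per the file headers, an RSEM estimate without normalization. The authors deposited TPM and FPKM beside them, and FPKM was not used in any result. RSEM and STAR are among the tools in the submitters' processing notes, which name no versions, and mm10 is the build named there; the strand setting of the counting is not given in the sources used here.

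Names and coordinates came from GENCODE vM21 (GRCm38), in which 55227 of 55487 IDs were found. Levels are deposited TPM, mean and SD over 3 replicates; log2 values use a pseudocount of 1. Counts were rounded for edgeR 4.0.16 (R 4.3.3; TMM, filterByExpr, intercept-only design, trended dispersion, threshold 0.05), the only test made. Pairs of genes got no p-value. The test was checked on simulated data, where it missed most of the smallest changes made in 1 replicate and found nearly all larger ones. Copies were found with blastn 2.17.0 and aligned with biopython 1.88. Genes of like length differ by at most 20% in mean deposited length. Replicates differed beyond sampling noise, and replicate 3 stood farthest from the others. Chi-square per degree of freedom was 6.64 for replicates 1 and 2, 29.3 for 1 and 3 and 20.4 for 2 and 3.

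Alternatives changed pseudocount, filter, scaling (DESeq2 1.42.0 size factors), length, copies and replicates. The genes and lists were chosen with earlier results of these data known. Genes named are the 10, the listed genes, the closest gene to each, snoRNA genes inside them, the copy with the most counts and markers; Gm25291, mt-Co1 and the overlapping genes Ndufs1, Rfc4 and Naprt were chosen after their values were seen.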

Additional observations from a re-analysis of the deposited data

How the results depend on the processing

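Of 85 alternative values for 14 results, 54 kept their direction, their side of the threshold and their size. The log2 ratio of Eif4a1 to Eif4a2 changed sign: from -0.87 it moved to -0.23 in CPM and -0.22 per coding length, and reversed to 0.40 with copies added and 1.05 with copies added per coding length. The log2 ratio of Eef1a1 to Eef1a2, 11.96, became 15.08 with a pseudocount of 0.1, 13.22 in CPM, 12.78 per coding length and 12.90 with copies as well. That of Eef1a1 to the mean of the eEF1B subunits, 4.74, became 4.38 per coding length and 4.45 with copies as well. The members' median log2 level, 7.64, became 9.09 with genes of effective length under 100 nt left out of TPM and 9.41 in CPM. Its excess over expressed protein-coding genes, 4.92, became 4.01 at a mean TPM of at least 5, 7.11 over all protein-coding genes, 5.13 with a pseudocount of 0.1 and 4.29 in CPM. The alternatives per coding length were chosen after seeing the data.

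Leaving out each replicate in turn gave 7.49 to 7.80 for the median level, 4.92 to 4.93 for the excess, 11.88 to 12.01, -0.91 to -0.83 and 4.66 to 4.79 for the 3 log2 ratios, and 56.7 to 59.8%, 8.42 to 8.65% and 6.94 to 9.65% for the copies' shares at Eif4a1, Eef1a1 and Eef1g. The 232 varying genes became 63 to 93, with fewer samples. Other translation factors called went from 1 to 0 in each such fit, with 1 to 5 at an unadjusted p under 0.05, and to 3 with length correction (Eif3f, Eif4ebp2 and Pabpc1), where the cause was not tested. None of the members was called by any setting run, by edgeR with TMM or DESeq2 size factors. No paired analysis was possible because only tables of 1 group were analysed. Depth limits Eef1a2 most, with 3 counts in all.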
